A study of Mus musculus with 2 samples.

Results

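The genes described here are the mouse amino acid transporter genes of 7 solute carrier families, Slc1, Slc3, Slc6, Slc7, Slc36, Slc38 and Slc43. They were chosen by gene symbol alone, as all RefSeq entries whose symbol carries one of these family numbers, without Slc7a11. The rule found 83 of the 24165 entries and 64 of the 20128 symbols in the table. Of these symbols, 61 are transporter genes with 80 entries, and the other 3 (Slc6a19os, Slc7a6os and Slc36a1os) are genes named for lying on the opposite strand of a transporter gene.

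Transcription was measured in C2C12, an established line of mouse myoblasts, which are proliferating muscle precursor cells that can fuse into muscle fibres. In GRO-seq (global run-on sequencing) nuclei are isolated, polymerases already engaged on a gene extend their RNA in the presence of a bromouridine nucleotide, and this new RNA is pulled down by its label and read. The only group was untreated myoblasts grown to 80% confluency in serum-containing medium, with 4 plates of 10 cm for each nuclei isolation and 2 replicate libraries. The authors pooled both libraries and gave each RefSeq entry 1 gene activity in RPKmM, or the word Inactive, so the values below have no replicate error, no test between genes was possible, and differences are described only by their size.

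RPKmM is a read density per length. It is the number of reads on the sense strand of the gene body, from 1 kb after the transcription start site (TSS) to the end of the gene, per kilobase of mappable sequence and scaled to the number of reads, and levels of different genes can therefore be set side by side. Values are rounded to 2 decimals, so that an activity of 0.01 RPKmM stands for anything within 0.005 of it. Depth per library was not given in the table, and an entry is called inactive where its read density did not pass the authors' statistical comparison with gene deserts. The label of the cells was checked against marker genes. All 5 myoblast genes were active, from 2.39 RPKmM for Myod1 to 146 RPKmM for Vim, with Myf5 at 5.03, Cdh15 at 8.08 and Des at 72.5 RPKmM. Of the genes of other cell types, Ptprc, Alb and Krt5 were inactive, Gfap had 1 entry at 0.01 RPKmM and 1 inactive entry, and the neuronal gene Syn1 was at 0.81 RPKmM.

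Amino acids cross membranes through carriers of overlapping range. Sodium-coupled carriers such as those of Slc38, Slc1 and Slc6 build up amino acids inside the cell, while exchangers such as those of Slc7 trade an internal amino acid for an external one. The light chains of Slc7 need a heavy chain of Slc3 to reach the plasma membrane. In muscle precursors, as in other growing cells, carriers supply protein synthesis, and some report amino acid supply to the kinase complex mTORC1.

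Transcription was found at little more than every other amino acid transporter gene, and most levels were modest. Of the 83 entries, 46 were active (55.4%), against 70.2% of all entries in the table. Of the 61 transporter genes, 33 were active and 28 were inactive. The active entries had a median of 0.455 RPKmM (quartiles 0.14 and 1.90), against 0.87 RPKmM over all active entries (quartiles 0.22 and 1.99), so the upper quartiles lay close together while the medians differed. With entries below 0.1 RPKmM counted as inactive, these medians were 0.92 and 1.19 RPKmM, and over all entries with inactive ones set to 0 they were 0.02 and 0.31 RPKmM. In a bulk measurement, a low level in every cell and a higher level in a few cells cannot be told apart. At or above 1 RPKmM stood 17 entries of 13 symbols (20.5% of the entries), against 32.3% of all entries. At or above 10 RPKmM stood 1 entry, that of Slc38a2, against 2.03% of all entries. In steps of 10 in activity, 1 transporter gene lay at 10 RPKmM or above, 11 lay from 1 to below 10, 12 lay from 0.1 to below 1, and 9 lay below 0.1 RPKmM. The plot of every gene by role shows how the transcribed genes are spread over the families.

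**Figure D1:**
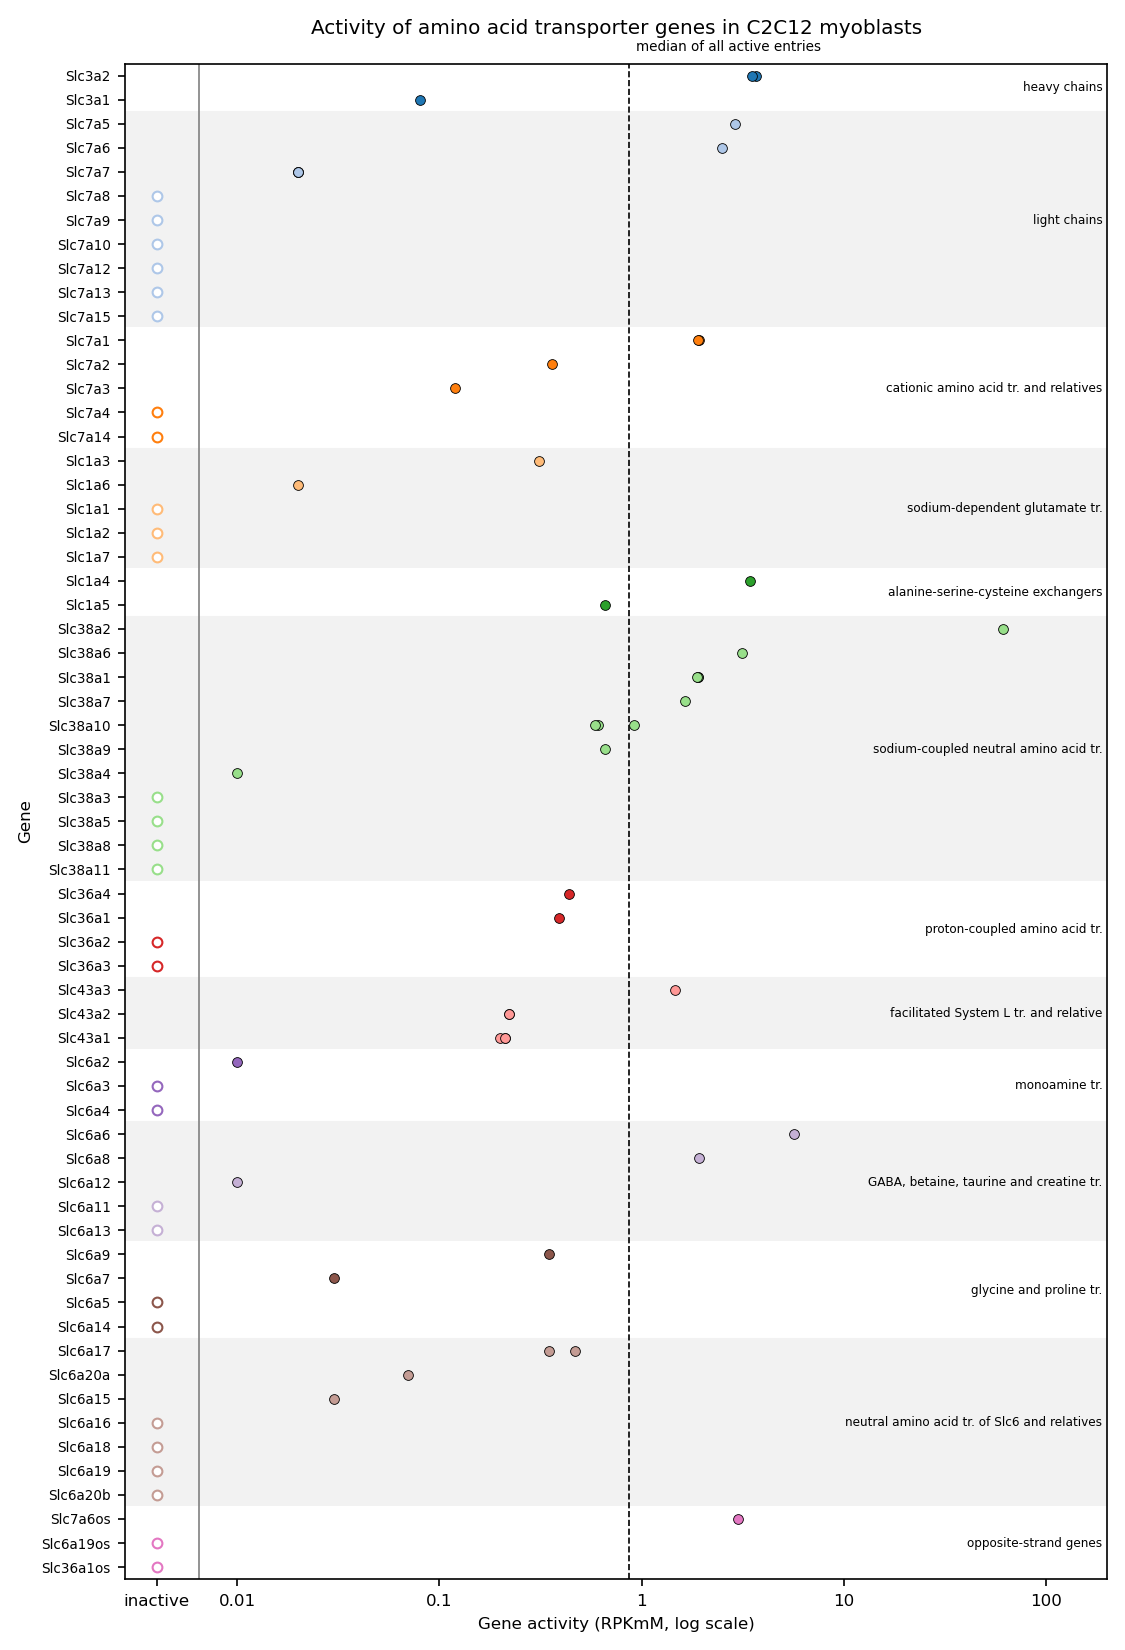
Gene activity in RPKmM (log axis) of the genes taken by the rule that are reported here, grouped by role (tr., transporters); each filled point is 1 RefSeq entry and an open circle is a gene whose entries were all inactive. The dashed line is the median of all active entries in the table, 0.87 RPKmM; Slc38a2 at 61.1 RPKmM stands alone at the right, and most roles hold both active genes and inactive ones.

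To show what lies in front of genes of differing activity, the 250 bases before the annotated start are given for 7 transporter genes, chosen after their activities were known. They were taken from RefSeq promoters of build GRCm38.p6 and read 5′ to 3′ on the strand of the gene. Capitals mark CpG dinucleotides, the sites that are frequent in the unmethylated promoters of many widely expressed genes. The first pair are neighbours on chromosome 15, the most active and 1 of the least active genes of the group (Slc38a2 at chr15:96699729-96699978 and Slc38a4 at chr15:97055957-97056206, both on the minus strand). The next 3 are a heavy chain and its light chains, 1 active and 1 inactive (Slc3a2 at chr19:8713898-8714147, minus strand, Slc7a6 at chr8:106168604-106168853, plus strand, and Slc7a8 at chr14:54781887-54782136, minus strand). The last pair are a neutral amino acid exchanger and a glutamate transporter of Slc1 (Slc1a4 at chr11:20332714-20332963 and Slc1a3 at chr15:8710808-8711057, both on the minus strand).
Slc38a2: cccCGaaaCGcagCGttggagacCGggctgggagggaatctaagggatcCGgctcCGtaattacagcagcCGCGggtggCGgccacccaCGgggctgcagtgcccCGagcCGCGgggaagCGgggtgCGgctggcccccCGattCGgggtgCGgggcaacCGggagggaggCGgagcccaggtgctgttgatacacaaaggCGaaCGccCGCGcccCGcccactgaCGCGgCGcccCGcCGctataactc
Slc38a4: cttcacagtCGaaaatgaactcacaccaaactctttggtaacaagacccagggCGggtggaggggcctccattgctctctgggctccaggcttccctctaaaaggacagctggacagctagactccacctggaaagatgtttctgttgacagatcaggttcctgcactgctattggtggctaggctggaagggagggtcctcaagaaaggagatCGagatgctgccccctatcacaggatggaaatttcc
Slc3a2: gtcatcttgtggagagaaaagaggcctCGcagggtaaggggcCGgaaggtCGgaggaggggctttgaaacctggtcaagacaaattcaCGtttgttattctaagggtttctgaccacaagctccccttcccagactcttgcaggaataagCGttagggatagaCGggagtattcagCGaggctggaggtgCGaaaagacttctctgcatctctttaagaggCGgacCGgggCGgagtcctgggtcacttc
Slc7a6: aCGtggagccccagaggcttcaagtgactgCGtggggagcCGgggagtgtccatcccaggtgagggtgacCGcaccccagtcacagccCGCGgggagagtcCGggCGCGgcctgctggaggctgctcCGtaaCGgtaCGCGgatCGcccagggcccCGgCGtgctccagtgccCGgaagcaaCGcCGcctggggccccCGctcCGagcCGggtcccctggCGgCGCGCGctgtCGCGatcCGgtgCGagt
Slc7a8: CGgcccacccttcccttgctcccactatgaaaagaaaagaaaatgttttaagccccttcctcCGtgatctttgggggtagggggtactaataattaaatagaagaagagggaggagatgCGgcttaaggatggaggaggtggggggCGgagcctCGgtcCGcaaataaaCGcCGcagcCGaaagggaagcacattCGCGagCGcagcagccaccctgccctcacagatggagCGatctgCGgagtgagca
Slc1a4: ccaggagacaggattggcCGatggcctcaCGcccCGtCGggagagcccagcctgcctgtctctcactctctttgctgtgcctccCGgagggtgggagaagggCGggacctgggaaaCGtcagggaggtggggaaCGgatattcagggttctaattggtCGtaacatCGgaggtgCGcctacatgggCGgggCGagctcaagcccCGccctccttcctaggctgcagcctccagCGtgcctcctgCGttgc
Slc1a3: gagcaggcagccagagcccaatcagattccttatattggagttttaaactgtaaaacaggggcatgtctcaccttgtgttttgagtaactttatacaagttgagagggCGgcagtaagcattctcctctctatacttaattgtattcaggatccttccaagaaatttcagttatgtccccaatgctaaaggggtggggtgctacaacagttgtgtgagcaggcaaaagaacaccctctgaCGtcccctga

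The windows differed widely in CpG content. Slc38a2 and Slc7a6 each held 30 CpG in 250 bases, more than 94.1% of the 32851 promoters in the RefSeq table, whose median was 6. Slc1a4 held 16, Slc7a8 held 14 and Slc3a2 held 11. Slc38a4 held 3 and Slc1a3 held 2, fewer than the median promoter. Activity and CpG number did not run in the same order in these 7 genes: Slc38a2 was at 61.1 RPKmM and Slc7a6 at 2.51 RPKmM with the same number of CpG, and Slc7a8 was inactive with more CpG than Slc3a2 at 3.69 RPKmM. The Slc3a2 window belongs to a start that lies 9472 bases inside the longer GENCODE gene, so transcription may also begin at another start. RefSeq lists 3 promoters for Slc38a4 and 2 for Slc7a6, of which the one nearest to the start of the GENCODE gene is shown. Motifs were searched on both strands. The GC box GGGCGG, found in 32.7% of all promoters of this length, occurred 3 times in Slc1a4, once in Slc38a2, Slc38a4, Slc3a2, Slc7a8 and Slc1a3, and not in Slc7a6. CAGCTG, an E-box that myogenic factors can bind (13% of all promoters), occurred once, in Slc38a4, and TATAAA (12.4%) occurred once, in Slc1a3. Neither TGATGNAA (3.45%), the core of the element through which ATF4 acts on amino acid response genes, nor CACGTG (6.02%) was present in any of the 7 windows. Both are rare in windows of this length, and a motif after the start or further upstream would have been missed. Whether these genes carry such an element elsewhere was not tested. Promoters were found for 46 of the 64 symbols (71.9%). This is under the 80% set as the minimum for comparing base composition between active and inactive genes, so that comparison was void.

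Among families of more than 3 genes, the sodium-coupled neutral amino acid transporters (Slc38) had the highest share of active entries and the highest median. Of 11 genes, 7 were active, and of 16 entries 11 were active (68.8%, against 70.2% of all entries), with a median of 1.64 RPKmM (0.87 RPKmM over all active entries). Slc38a2, which encodes SNAT2, the System A carrier of small neutral amino acids that is known to be induced by amino acid scarcity, was at 61.1 RPKmM. It held rank 49 of the 16957 active entries and rank 46 of the 13822 active symbols. Among the 344 Slc symbols in the table it was first, and the next, the nucleoside transporter Slc29a1, was at 27.9 RPKmM. If the highest entry of each of the 34 active symbols is summed, Slc38a2 makes up 61.3% of the total of 99.8 RPKmM. This total includes the opposite-strand gene Slc7a6os at 3.01 RPKmM.

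The rest of Slc38 lay far lower. Slc38a6 was at 3.14 RPKmM. Slc38a1, which encodes SNAT1, another System A carrier, had 3 entries at 1.88, 1.89 and 1.90 RPKmM. Slc38a7, a carrier of glutamine and asparagine in lysosomes, was at 1.64 RPKmM, and Slc38a9, the lysosomal protein that passes arginine levels to mTORC1, was at 0.66 RPKmM. Slc38a10 had entries at 0.92, 0.61 and 0.59 RPKmM, the widest spread among entries of a symbol. Slc38a4, which encodes SNAT4, the System A carrier best known from liver, was at 0.01 RPKmM. Slc38a3 and Slc38a5, the System N carriers of glutamine and histidine, were inactive, as were Slc38a8 and Slc38a11.

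The 3 System A genes are neighbours, and their activities ran from 0.01 to 61.1 RPKmM. In mm9, Slc38a2 lies at chr15:96517825-96530129, Slc38a1 at chr15:96401849-96473344 and Slc38a4 at chr15:96825254-96886387, all on the minus strand, and no other protein-coding gene of the GENCODE annotation lies between them. Slc38a4 ends 295 kb before the start of Slc38a2, and Slc38a1 begins 44.5 kb after the end of Slc38a2. Slc38a2 was 32.2 times as active as Slc38a1, and rounding of the deposited values moves that ratio only between 32.1 and 32.3. Against Slc38a4 the ratio was 6114, but rounding alone leaves any value from 4076 to 12229. At 12.3 kb, Slc38a2 is also the shortest of the 3, while Slc38a1 spans 71.5 kb and Slc38a4 spans 61.1 kb.

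**Figure D2:**
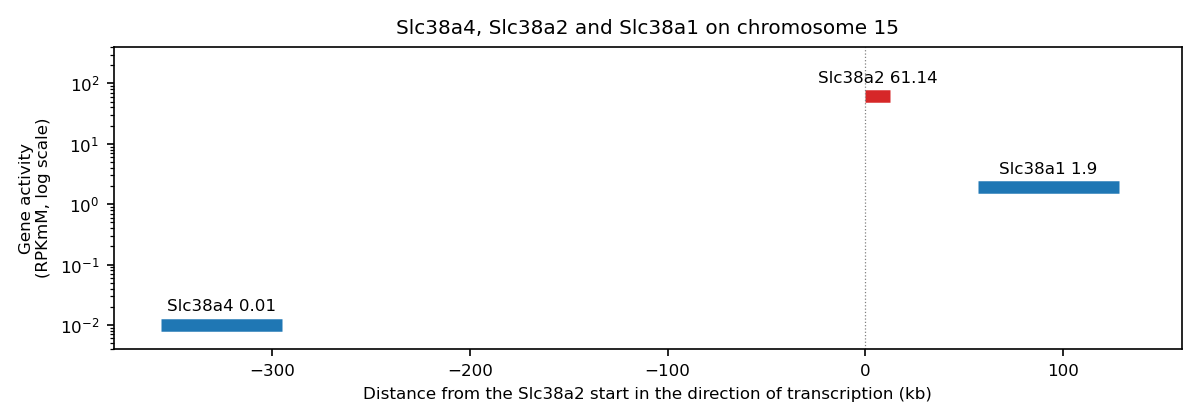
Gene activity in RPKmM (log axis) of the neighbouring genes Slc38a4, Slc38a2 and Slc38a1 against distance in kb from the Slc38a2 start, in the direction of transcription; each bar spans the gene and its height on the axis is the activity of the highest entry. Slc38a2 at 61.1 RPKmM stands between Slc38a4 at 0.01 RPKmM and Slc38a1 at 1.90 RPKmM.

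Among the heteromeric transporters, a single heavy chain and a pair of light chains stood above 1 RPKmM. Slc3a2, the heavy chain also known as CD98, had entries at 3.69 and 3.52 RPKmM, above 88.3% and 87.5% of all active entries. Slc3a1, the heavy chain of the kidney cystine transporter, was at 0.08 RPKmM, and Slc3a2 was 46.1 times as active (43.4 to 49.3 by rounding). Slc7a5, the light chain LAT1 that exchanges leucine and other large neutral amino acids, was at 2.89 RPKmM. Slc7a6, the light chain of a cationic and neutral amino acid exchanger, was at 2.51 RPKmM. The levels of Slc3a2 were 1.28 times that of Slc7a5 and 1.47 times that of Slc7a6, so Slc3a2 and these 2 partners lay within a narrow range. Slc7a7, which encodes the close relative of the Slc7a6 product, had 3 entries at 0.02 RPKmM each. Of the 14 entries of the 9 light chain genes, 5 were active (35.7%, against 70.2% of all entries). Of these genes, 6 were inactive. These were Slc7a8 (LAT2), Slc7a9 (the partner of Slc3a1), Slc7a10, Slc7a12, Slc7a13 and Slc7a15.

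The cationic amino acid transporters, which carry arginine, lysine and ornithine without a heavy chain, were graded. Slc7a1 (CAT1, the widely expressed form) had entries at 1.93 and 1.89 RPKmM. Slc7a2 (CAT2) was at 0.36 RPKmM and Slc7a3 (CAT3) at 0.12 RPKmM, so that Slc7a1 was 5.36 and 16.1 times as active, respectively. The relatives Slc7a4 and Slc7a14 were inactive.

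In Slc1 the neutral amino acid exchangers were the more active genes. Slc1a4 (ASCT1), an exchanger of alanine, serine and cysteine, was at 3.45 RPKmM. Slc1a5 (ASCT2), a major route of glutamine into proliferating cells, was at 0.66 RPKmM, below the median of all active entries, and Slc1a4 was 5.23 times as active. Of the 5 glutamate transporters, which clear glutamate from synapses and supply it to other tissues, only Slc1a3 and Slc1a6 were active, at 0.31 and 0.02 RPKmM. Slc1a1, Slc1a2 with its 3 entries, and Slc1a7 were inactive.

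Of the 20 Slc6 transporter genes, which include the carriers of neurotransmitters, 11 were inactive, and only the carriers of taurine and creatine stood above 1 RPKmM. In all, 10 of the 22 entries of these genes were active (45.5%, against 70.2% of all entries). Their median was 0.21 RPKmM, against 0.87 RPKmM over all active entries. The share was similar for the transporter genes of Slc1 (44.4%), Slc7 (45%) and Slc36 (50%), and higher for Slc3, Slc38 and Slc43. Slc6a6, which takes up taurine, an osmolyte abundant in muscle, was at 5.70 RPKmM. It was second among the transporter genes, above 93.7% of all active entries and 11th among the Slc symbols, and Slc38a2 was 10.7 times as active. Slc6a8, which imports creatine for the phosphocreatine store of muscle, was at 1.93 RPKmM, above 74.1% of all active entries. The betaine and GABA transporter Slc6a12 was at 0.01 RPKmM, and the GABA transporters Slc6a11 and Slc6a13 were inactive.

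The remaining Slc6 genes stayed below 0.5 RPKmM. Slc6a9 (GLYT1, a glycine transporter) was at 0.35 RPKmM and Slc6a7 (a brain proline transporter) at 0.03 RPKmM, while the glycine transporter Slc6a5 and the broad-range carrier Slc6a14 were inactive. Slc6a17, which loads neutral amino acids into synaptic vesicles, had a coding entry at 0.35 RPKmM and a non-coding entry at 0.47 RPKmM. Slc6a20a, a proline transporter, was at 0.07 RPKmM and Slc6a15 at 0.03 RPKmM. Slc6a16, Slc6a18, Slc6a19 (the main neutral amino acid carrier of gut and kidney) and Slc6a20b were inactive. Of the monoamine transporters, Slc6a2 for noradrenaline was at 0.01 RPKmM, and Slc6a3 for dopamine and Slc6a4 for serotonin were inactive.

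Of the Slc36 and Slc43 genes, only Slc43a3 stood above the median of all active entries. Slc36a4 and Slc36a1, of which the latter is a proton-coupled carrier that works in lysosomes, were at 0.44 and 0.39 RPKmM. Slc36a2 and Slc36a3 were inactive. All 6 entries of Slc43 were active. Slc43a3, which carries nucleobases rather than amino acids, was at 1.46 RPKmM. The facilitated carriers of branched-chain and other large neutral amino acids were lower, with Slc43a2 at 0.22 RPKmM in both entries and Slc43a1 at 0.20 or 0.21 RPKmM in its 3 entries. Slc43a3 was 6.95 times as active as Slc43a1.

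Entries of a symbol never disagreed in their call among these genes, and how often they do in other symbols was not computed. Of the 13 symbols with more than 1 entry, 8 had all entries active and 5 had all entries inactive, and the largest ratio between entries of a symbol was 1.56, for Slc38a10. Such entries overlap and count many of the same reads, so they are no repeat measurements. Some active entries had very low values. Below 0.1 RPKmM stood 11 of the 46 active entries (23.9%), against 18.5% of all active entries. At or below 0.03 RPKmM, within a few rounding steps of 0, stood 9 entries of 7 symbols (19.6%, against 12.6% of all active entries), those of Slc1a6, Slc6a2, Slc6a7, Slc6a12, Slc6a15, Slc7a7 and Slc38a4. They were listed at 0.01, 0.02 or 0.03 RPKmM, and genes listed at the same value cannot be put in order.

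The amino acid transporter genes were set beside other solute carriers. Of 53 entries of Slc25, the carriers of the inner mitochondrial membrane, 88.7% were active, with a median of 0.66 RPKmM. Of the 284 entries of all remaining Slc genes, 63.4% were active, with a median of 0.48 RPKmM, close to the 0.455 RPKmM of the amino acid transporters. Both shares lie above the 55.4% of the amino acid transporters, whereas a list of other amino acid carriers and accessory proteins outside the rule had 55% of its 20 entries active. The share of entries at or above 1 RPKmM was 30.2% for Slc25 and 20.1% for the remaining Slc genes, against 20.5% for the amino acid transporters. These are descriptions of 1 pooled value per entry and were not tested.

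**Figure D3:**
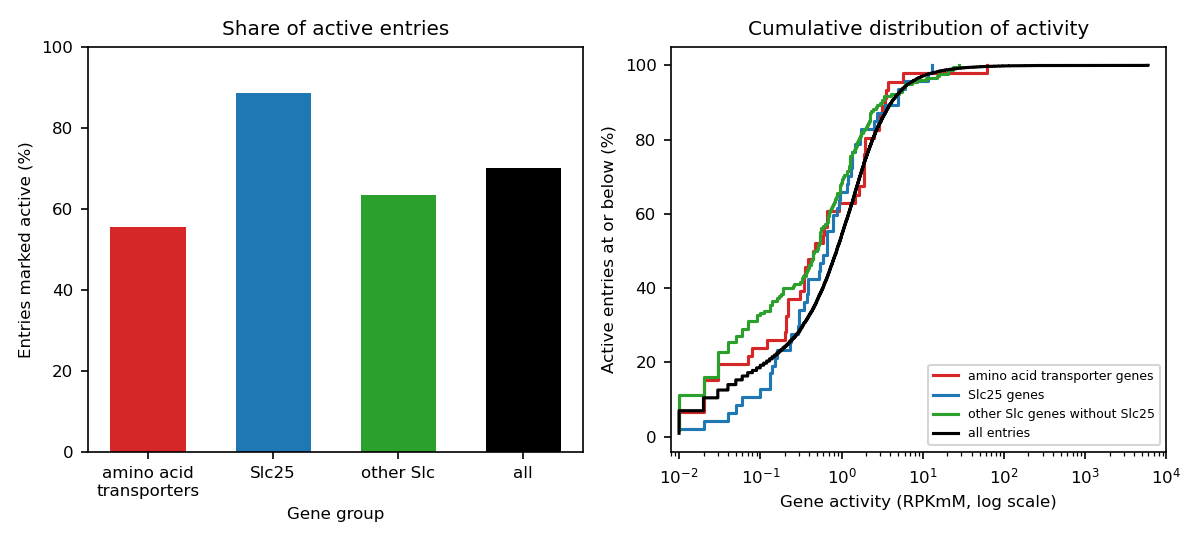
Left, percent of RefSeq entries marked active in each gene group (bars start at 0; other Slc, all Slc genes that are neither in the rule nor in Slc25); right, cumulative percent of active entries at or below each activity in RPKmM (log axis). Among the 4 groups drawn, the amino acid transporters have the lowest share of active entries, 55.4%, and their curve lies above that of all entries between 0.02 and about 1 RPKmM and close to it at higher activities.

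The positions of the genes were set beside their activities. In the GENCODE annotation of mm9, 61 of the 64 symbols could be placed, with median lengths of 35.1 kb for 34 active genes and 33.7 kb for 27 inactive genes. Within 500 kb of each other lay 13 pairs of genes that follow each other among the placed genes. Some pairs have other protein-coding genes between them, such as 17 between Slc7a7 and Slc7a8. Of the 13 pairs, 4 were active in both, 5 inactive in both, and 4 mixed, and no such share was computed for other gene pairs. Slc36a1 at 0.39 RPKmM lies 19.3 kb from the inactive Slc36a2 on chromosome 11, and Slc6a20a at 0.07 RPKmM lies 3.56 kb from the inactive Slc6a20b on chromosome 9. Slc6a12 at 0.01 RPKmM follows the inactive Slc6a13 on chromosome 6, and Slc7a7 and the inactive Slc7a8 lie 308 kb apart on chromosome 14. Slc6a3, Slc6a18 and Slc6a19 on chromosome 13 were all inactive, with Clptm1l and Tert lying between Slc6a3 and Slc6a18. Slc7a6 and Slc7a6os on chromosome 8 point towards each other with 1.73 kb between their ends, and both were active, at 2.51 and 3.01 RPKmM. The other opposite-strand genes, Slc6a19os and Slc36a1os, were inactive.

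Some low values stood beside active genes. Of 16 genes with another gene on the same strand within 10 kb upstream, 6 were active with an active upstream gene, and no such share was computed for other genes. Slc3a1 at 0.08 RPKmM lies 4356 bases after Ppm1b at 2.61 RPKmM, and Slc43a1 at 0.21 RPKmM lies 8637 bases after Timm10 at 1.44 RPKmM. Slc7a6 at 2.51 RPKmM lies 4162 bases after Pla2g15 at 1.90 RPKmM. The upstream genes of the other 3, Slc6a7, Slc7a5 and Slc43a2, were at 0.01 RPKmM (Cdx1 and Car5a) and 0.06 RPKmM (Scarf1). Slc38a8 was inactive although it lies 6458 bases after Mbtps1 at 2.33 RPKmM. Whether reads from an upstream gene enter the values of Slc3a1 or Slc43a1 was not tested. On the opposite strand, Slc3a1 overlaps Prepl at 1.37 RPKmM, Slc7a7 overlaps Oxa1l at 1.52 RPKmM and Slc6a9 overlaps B4galt2 at 2.68 RPKmM, and activity was counted on the sense strand only.

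Carriers of amino acids outside the rule were in part inactive too, and genes that sense or make amino acids were nearly all active. Of 15 genes of other carriers and their accessory proteins found in the table, 9 had an active entry. Of their 20 entries 55% were active, against 70.2% of all entries. The median over active entries was 0.25 RPKmM, against 0.87 RPKmM over all active entries. The highest was Slc15a4, a lysosomal histidine and peptide carrier, at 2.13 RPKmM. Slc7a11, the light chain of the cystine and glutamate exchanger, was at 0.05 RPKmM, and the vesicular glutamate transporter Slc17a8 had 1 entry listed at 0 and 1 inactive entry. The carriers Slc15a1, Slc17a6, Slc17a7 and Slc32a1 were among the inactive ones, as was Tmem27, an accessory protein of Slc6 carriers.

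Of 33 genes of amino acid sensing to mTORC1, 32 were active, against 68.7% of all symbols. Their 36 active entries of 37 had a median of 0.95 RPKmM, close to the 0.87 RPKmM over all active entries. They ran from 0.10 RPKmM for Gatsl3, the arginine sensor CASTOR1, to 4.75 RPKmM for Lars, the leucyl-tRNA synthetase, and Rragb, a Rag GTPase, was inactive. Of 27 genes of amino acid synthesis and interconversion, 26 were active, again against 68.7% of all symbols. Their 31 active entries of 32 had a median of 0.99 RPKmM, against 0.87 RPKmM over all active entries. The highest was Glud1, the glutamate dehydrogenase of mitochondria, at 9.32 RPKmM, and the lowest was Cbs, of the cysteine pathway, at 0.01 RPKmM. No gene of these 3 lists reached the activity of Slc38a2.

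**Figure D4:**
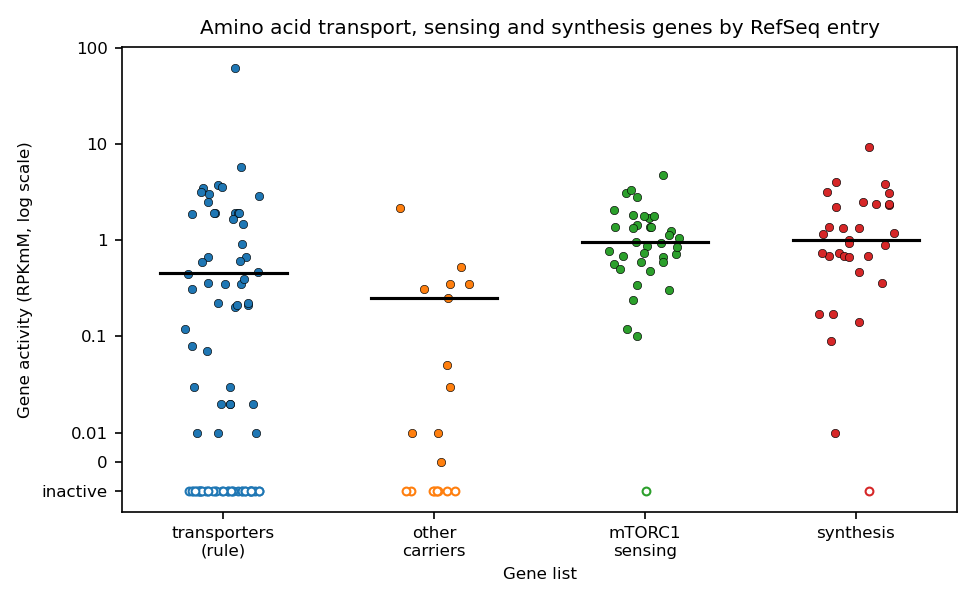
Gene activity in RPKmM (log axis, with inactive entries and entries listed at 0 drawn below it) of the amino acid transporter genes and of 3 lists of other amino acid genes; each point is 1 RefSeq entry, spread sideways for legibility, and the bar is the median of active entries. Transporters (0.455 RPKmM) and other carriers (0.25 RPKmM) have many inactive entries, whereas sensing (0.95 RPKmM) and synthesis genes (0.99 RPKmM) have 1 each.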

How the data were processed

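The 2 GRO-seq libraries, both of untreated C2C12 myoblasts, form 1 group. Per the labels, base calls were made with CASAVA 1.8 and reads were mapped to mm9 with Bowtie2. The authors shortened unmapped reads stepwise and mapped them again, kept unique matches, and dropped those at repeats of rRNA and tRNA genes. They then merged both libraries and deposited 1 gene activity per RefSeq entry in RPKmM, an RPKM over mappable bases, rounded to 2 decimals. They wrote Inactive where a Poisson comparison with gene deserts at a false discovery rate of 0.01 was not passed. Pooling removes the spread between libraries, and unmappable or removed sequence leaves parts of genes uncounted. The column holds words beside numbers, which run from 0 to 5957, and its unit was read from the header and the methods.

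Entries were matched by symbol and counts, medians, quartiles and ratios were computed with Python 3.11.15, numpy 2.4.6, pandas 2.3.3, scipy 1.17.1 and matplotlib 3.10.9, and the counting was tested on simulated data. Each ratio used the highest entry of a gene, and its range came from moving both values by 0.005. With 1 pooled value no p-value or interval between genes was computed. Binomial 95% bands over the entries served only to mark an alternative as moved. They ran from 44.1% to 66.3% for the share and from 0.22 to 1.64 RPKmM for the median. These bands treat overlapping entries as independent and measure no spread between replicates. Gene positions were from GENCODE vM1 (NCBIM37, the sequence of mm9), and promoter sequences from RefSeq (GRCm38.p6). Named with values were all genes at or above 0.87 RPKmM, the highest and lowest active gene of each role and of each further list, and, beyond that rule, all remaining active genes and the neighbours described. Inactive genes were named without values, and some genes are counted but not reported here by name. The genes and all lists were chosen with earlier results of these data known. Read depth, pausing and values per replicate were not used here. Alternatives were 1 entry per symbol, coding entries only, entries below 0.1 RPKmM as inactive, families or carriers left out, a geometric mean with a pseudocount of 0.01, and inactive entries set to 0.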

Additional observations from a re-analysis of the deposited data

How the results depend on the processing

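The share of active entries among the amino acid transporters was below that of all entries in the main setting and in 7 of 7 alternatives, and their median in 10 of 10. The share moved from 55.4% to 42.2% where entries below 0.1 RPKmM were counted as inactive (57.2% over all entries), and otherwise ran from 53.1% to 60% (without Slc6 genes). The median of 0.455 RPKmM fell to 0.02 RPKmM over all entries with inactive ones set to 0 (0.31 over all entries of the table), and rose to 0.92 RPKmM with entries below 0.1 RPKmM as inactive (1.19 over all entries). Otherwise it ran from 0.415 RPKmM to 0.635 RPKmM. Entries at or above 1 RPKmM numbered from 13, with 1 entry per symbol, to 17. Settings without the opposite-strand genes or without Slc38a2 were chosen after seeing the data, and without Slc38a2 the median was 0.44 RPKmM. No replicate could be left out and no paired analysis was possible because the activity table holds only pooled values. Alternatives for promoter CpG and for protein identity were not run, the first because too few genes had a promoter and the second because no protein sequences were used here. The pooled values carry no error, the table gives no read depth, and activities near 0.01 RPKmM are known only to within rounding.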
